A study of Mus musculus with 34 samples.

Results

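The sites described here are peaks of the transcription factors BATF, IRF4 and Foxp3 at chromatin regulator genes in mouse CD4+ T cells. A peak was a member when the nearest mm10 protein-coding gene body, at most 100000 bp from the peak centre, carried a symbol of the Kmt, Kdm, Hdac, Smarc, Tet, Dnmt, Arid or Chd gene families. The rule used position and gene name, and no measured value. By it 531 of 41612 peaks in 4 peak tables were members. These were 186 of 16109 BATF peaks and 112 of 9134 IRF4 peaks from regulatory and conventional T cells, 153 of 6396 Foxp3 peaks from regulatory T cells, and 80 of 9973 BATF peaks from an experiment on the Foxp3 mutation R397W. Of 77 protein-coding genes with a matching symbol, 66 were the nearest gene of at least 1 peak. The other 11 were Arid3c, Chd5, Dnmt3l, Hdac6, Hdac11, Kdm4b, Kdm5b, Kdm5d, Smarca1, Smarcd2 and Smarcd3. Peaks of all 4 tables overlap the promoter of Kdm5b, but by the rule another gene body lies nearer to their centres. A peak is named after the nearest gene, which need not be the gene that it controls.

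All cells were sorted fresh from spleen and lymph nodes of mice of strain C57BL6/J, and factor binding was measured by chromatin immunoprecipitation and sequencing. Regulatory T (Treg) cells (CD4+hCD2+) and conventional T (Tconv) cells (CD4+hCD2-) came from Foxp3-IRES-hCD2 mice, in which surface human CD2 marks cells that express Foxp3. BATF was measured in 2 libraries and IRF4 in 4 libraries of each of these cell types. Foxp3 was measured in 2 libraries each of effector Treg cells (CD4+hCD2+CCR7loCD62Llo), central Treg cells (CD4+hCD2+CCR7hiCD62LhiCD44lo), all wild-type Treg cells (CD4+hCD2+) and all Treg cells of Foxp3-IRES-hCD2.Batf-/- mice, whose genotype names no promoter that would limit the deletion to Treg cells. The R397W experiment used CD4+hCD2+GFP- cells, with 2 libraries from Foxp3R397W-IRES-hCD2/Foxp3-IRES-GFP mice and 2 from Foxp3WT-IRES-hCD2/Foxp3-IRES-GFP controls. Both of these genotypes also carry a GFP-marked Foxp3 allele, and the sort on GFP- cells leaves out the cells that express it. Age, the number of animals and batches are not given in the labels. The p-values below therefore measure only the spread between these libraries, which may be technical.

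Chromatin regulators set how tightly DNA is packed and which marks its histones carry. Methyltransferases (Kmt) add and demethylases (Kdm) remove methyl groups on histone lysines, and deacetylases (Hdac) remove acetyl groups. Dnmt and Tet enzymes add and oxidise DNA methylation. SWI/SNF complexes, which hold many of the Smarc and some of the Arid proteins, and Chd proteins move or evict nucleosomes. In Treg cells several of these enzymes work with Foxp3, and the DNA methylation state of the Foxp3 gene is part of what keeps the lineage stable. BATF is an AP-1 family factor that binds DNA with Jun proteins and, at composite sites, with IRF4, and both are needed for effector Treg cells to form.

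Values are the authors' normalised scores, in which each value is a whole number of reads in the peak times 1 factor per library, and they are called normalised reads here. A library held 1377509 to 2280493 reads in peaks in the first BATF table, 162580 to 336969 for IRF4, 164740 to 393310 for Foxp3 and 144319 to 1009580 in the second BATF table. As a check of the labels, BATF passed the test as higher in Treg cells at 27 of 31 peaks of 6 Treg marker genes, and IRF4 at 11 of 17. At the peak within Foxp3 itself, BATF stood at 115 and 108 in Treg and at 3.48 and 0 in Tconv libraries. Markers of other cells had few peaks: BATF was higher in Treg cells at 1 of 3 B cell and 2 of 5 myeloid marker peaks, and at 1 of 13 peaks of CD8 and NK cell markers, with 3 lower. The part of such cells in the results below was not tested.

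Peaks over promoters make the bases under some of these sites visible. A RefSeq promoter window (250 bases before to 50 after a start, build GRCm38.p6, the same assembly as mm10) was at hand for 49 of the 66 genes. The windows of Kdm2b, Kdm8, Chd4 and Kdm5c are shown because peaks described below lie on them and passed a test, and they were chosen after their values were seen. Kdm2b and Kdm8 encode histone demethylase family proteins, Chd4 the nucleosome-moving ATPase of the NuRD complex, and Kdm5c an X-linked histone demethylase. Capitals mark a match to 1 of the motifs TGANTCA (the AP-1 site bound by BATF), TGANNTCA (its longer spacing), GTAAACA (forkhead), TTTGTTTG (a repeat) and GGAANNGAA (ETS and IRF factors), each searched on both strands.
Kdm2b, chr5:122989050-122989349, minus strand: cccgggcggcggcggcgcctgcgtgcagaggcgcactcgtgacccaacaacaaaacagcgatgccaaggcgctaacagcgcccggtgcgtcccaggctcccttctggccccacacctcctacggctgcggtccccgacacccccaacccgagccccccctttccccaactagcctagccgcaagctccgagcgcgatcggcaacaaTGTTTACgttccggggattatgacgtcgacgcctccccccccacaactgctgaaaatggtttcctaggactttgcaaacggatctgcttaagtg
Kdm8, chr7:125444370-125444669, plus strand: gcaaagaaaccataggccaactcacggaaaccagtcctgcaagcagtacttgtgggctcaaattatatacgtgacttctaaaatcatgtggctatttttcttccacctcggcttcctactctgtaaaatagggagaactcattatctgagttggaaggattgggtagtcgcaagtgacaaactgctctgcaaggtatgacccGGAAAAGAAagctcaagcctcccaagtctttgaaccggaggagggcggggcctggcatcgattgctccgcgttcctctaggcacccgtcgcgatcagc
Chd4, chr6:125095731-125096030, plus strand: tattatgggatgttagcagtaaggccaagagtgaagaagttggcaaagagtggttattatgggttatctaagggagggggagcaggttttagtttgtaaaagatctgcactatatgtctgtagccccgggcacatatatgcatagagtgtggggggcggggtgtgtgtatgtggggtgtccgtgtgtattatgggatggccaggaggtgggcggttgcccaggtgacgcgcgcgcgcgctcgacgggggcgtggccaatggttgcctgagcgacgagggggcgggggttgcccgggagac
Kdm5c, chrX:152232977-152233276, plus strand: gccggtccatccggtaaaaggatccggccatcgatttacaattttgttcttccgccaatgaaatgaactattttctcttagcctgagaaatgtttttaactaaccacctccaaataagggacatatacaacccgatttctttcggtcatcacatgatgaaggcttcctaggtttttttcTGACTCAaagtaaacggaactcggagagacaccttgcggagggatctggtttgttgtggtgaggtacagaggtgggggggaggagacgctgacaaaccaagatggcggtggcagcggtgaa
The Kdm2b window holds TGTTTAC, the forkhead motif on the other strand, starting at -44 from the start site. The Kdm8 window holds GGAAAAGAA at -48 and the Kdm5c window TGACTCA at -71. None of the 5 motifs was found in the Chd4 window. Of all 32851 windows, 7.81% held TGANTCA, 14.1% TGANNTCA, 3.65% GTAAACA, 2.61% TTTGTTTG and 8.24% GGAANNGAA. Of the 8137 windows that overlapped a BATF peak of the first table, 4.06% held TGANTCA, 9.91% TGANNTCA, 2.46% GTAAACA, 1.35% TTTGTTTG and 6.98% GGAANNGAA. Of the 47 such windows of genes that match the symbol rule, Kdm5b included, 4 held TGANTCA, 1 TGANNTCA, 2 GTAAACA and 3 GGAANNGAA, and none held TTTGTTTG. These matches describe the letters of the windows and are not evidence that a factor binds there.

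Joining peaks of any table that overlapped by 1 bp or more gave 309 sites, of which 191 had peaks of 1 factor, 83 of 2 factors and 35 of all 3. The 35 sites of all 3 factors lay at 18 genes. Over 5 comparisons, 67 sites (21.7%) passed the test (adjusted p under 0.05) in at least 1 and 19 (6.15%) in at least 2. Among 21759 sites joined the same way from all peaks these shares were 25.4% and 7.94%. Of the members 5 (1.62%, against 2.87% of all sites) passed in 3 or more: 1 site each in Hdac4 (in all 5), Tet1, Chd7, Kdm1a and Kmt2a. The other 242 sites passed in none of the 5. Of the 12 sites where both BATF and IRF4 passed between Treg and Tconv cells, 12 had the same direction, 11 higher and 1 lower (Tet1), as had 1060 of 1061 such sites among all peaks. The 2 factors were measured in different libraries. Of the 28 sites with both peaks where BATF was higher in Treg cells, IRF4 was higher at 11 and did not pass at 17. Over the first BATF, the IRF4 and the Foxp3 tables, the genes with most peaks were Chd2 (15, 7 and 17), Chd7 (12, 12 and 11), Arid5b (13, 10 and 9), Kmt2e (6, 3 and 12) and Kmt2a (5, 4 and 11). Of 34 well-known members listed by name, 32 had a BATF peak, and the strongest peak of each was higher in Treg cells for 7, lower for 3 and not called for 22 (of all BATF peaks, 14.9% were higher and 4.79% lower). For IRF4 these counts were 4, 2 and 19 of 25 genes (15.8% and 8.39% of all peaks), and for Foxp3 in effector against central cells 3, 5 and 14 of 22 (15.0% and 10.8% of all peaks). In Batf-/- cells none of the 22 strongest Foxp3 peaks was called with limma (3.91% of all peaks were lower), and in R397W cells 1 of 22 strongest BATF peaks was lower (8.04% of all peaks).

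**Figure D1:**
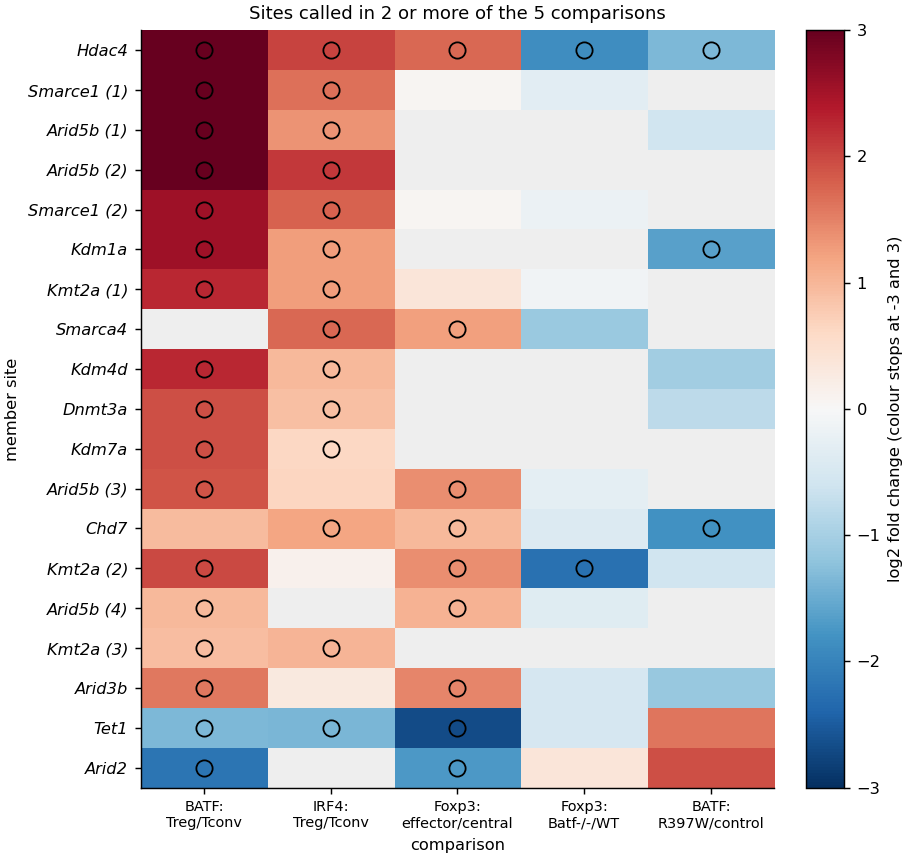
Log2 fold changes (colour, stopping at -3 and 3) at the 19 member sites that passed the test in at least 2 of 5 comparisons (columns). Circles mark values that passed, and light grey cells mark sites without a peak in that table. The Hdac4 site at the top has a circle in all 5 columns, and Tet1 and Arid2 at the bottom are blue in the Treg/Tconv and effector/central columns, where the other called sites are red.

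A site within Hdac4, which encodes a class IIa histone deacetylase that shuttles between cytoplasm and nucleus, differed in every comparison. It lies on chromosome 1 at 92119197 to 92119597 (BATF peak), 60944 bp downstream of the nearest annotated start of the gene. BATF stood at 277 and 160 normalised reads in the 2 Treg libraries and at 24.4 and 7.85 in the 2 Tconv libraries, so the lowest Treg value was far above both Tconv values. The ratio was 14.1, taken like all folds after adding 1 to each value (log2 fold change 3.82, SE 0.42, adjusted p = 8.07e-06). IRF4 stood at 71.9, 65.0, 57.7 and 52.8 in Treg against 26.7, 14.6, 7.22 and 14.9 in Tconv libraries (log2 fold change 2.02, SE 0.31, adjusted p = 6.37e-05). Foxp3 at the Hdac4 site was higher in effector cells and lower in cells without BATF. It stood at 55.7 and 66.3 in effector against 20.0 and 15.6 in central Treg libraries (log2 fold change 1.73, SE 0.32, adjusted p = 0.00023), and at 61.7 and 47.6 in wild-type against 17.3 and 11.6 in Batf-/- Treg libraries. The knockout libraries lay at the level of the central ones, 3.64-fold below wild type (log2 fold change -1.86, SE 0.32, adjusted p = 0.000549). In the R397W experiment BATF stood at 133 and 180 in control and at 85.5 and 42.3 in mutant libraries (log2 fold change -1.35, SE 0.32, adjusted p = 0.0146). In such pooled cells, fewer cells with a bound site and less binding per cell cannot be told apart. The first 4 of these calls were kept without any 1 library. The R397W call was lost without control library b (log2 fold change -1.13) or mutant library 2 (-0.85), with no mean-variance trend and with DESeq2 (adjusted p = 0.0587).

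**Figure D2:**
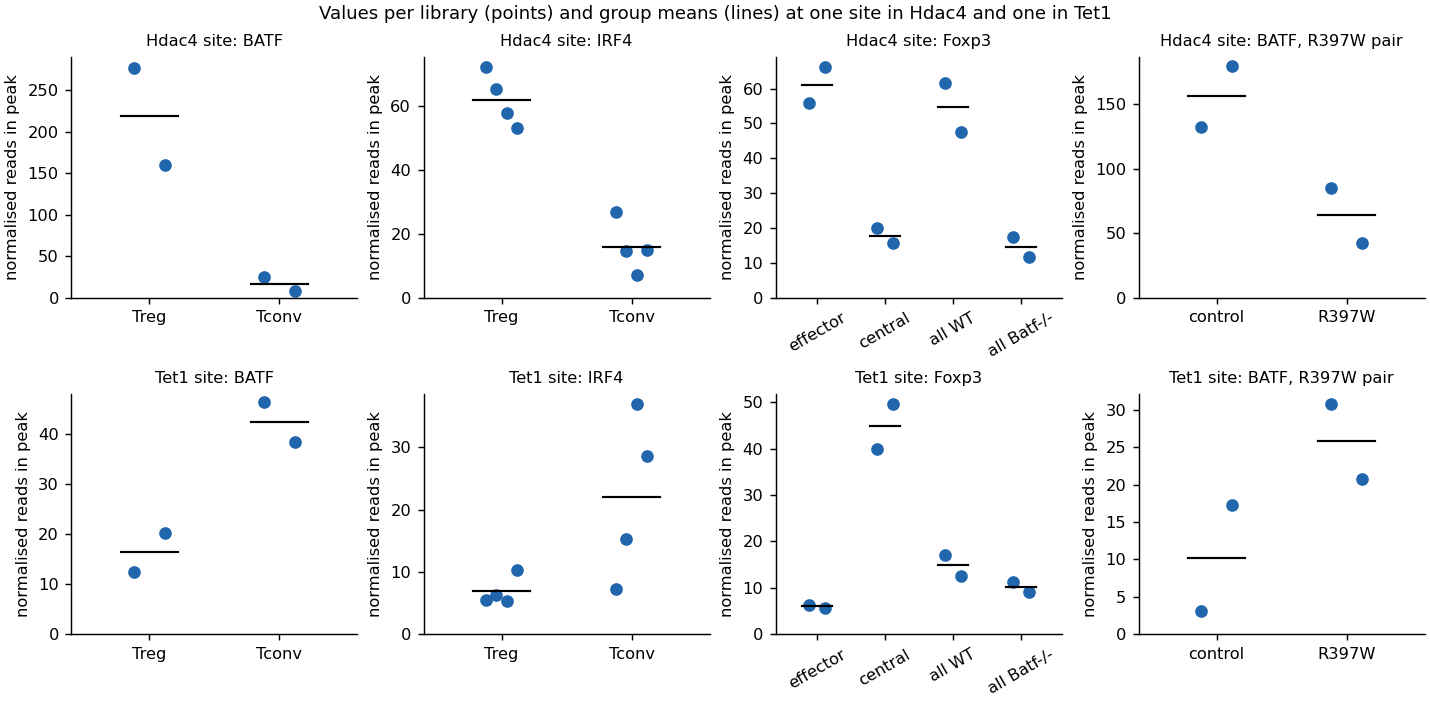
Normalised reads (vertical axes, starting at 0) in each library (points) with group means (lines) at the Hdac4 site (top) and the Tet1 site (bottom). At Hdac4 the Treg, effector, wild-type and control libraries are the high ones, while at Tet1 most Tconv and both central libraries are. In the IRF4 panel at Tet1 the lowest Tconv library overlaps the Treg range. In the R397W panel at Tet1 both mutant libraries lie above both controls.

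Other deacetylase sites showed other patterns. A second Foxp3 site within Hdac4 (92069464 to 92069864) went the opposite way, at 22.8 and 38.1 in effector and 94.6 and 151 in central libraries (log2 fold change -1.98, SE 0.30, adjusted p = 2.93e-05). All wild-type and Batf-/- Treg libraries lay between, from 40.4 to 65.2. Within Hdac7, a class IIa deacetylase active in T cells, BATF at a site bound by all 3 factors stood at 413 and 439 in Treg against 265 and 278 in Tconv libraries (log2 fold change 0.65, SE 0.16, adjusted p = 0.00838). That call was lost without Tconv library 1 (0.61). IRF4 at the same Hdac7 site did not pass (245 ± 21.5 against 171 ± 46.6, SD, n = 4, adjusted p = 0.0671). The strongest Foxp3 value of the class IIa genes was at the promoter of Hdac5 (chromosome 11, 102229963 to 102230363), with 153 and 183 in effector, 160 and 164 in central, 144 and 153 in wild-type and 145 and 151 in Batf-/- libraries. This Hdac5 site held peaks of all 3 factors and passed in none of the comparisons. At a peak 231 bp from Hdac1, a class I deacetylase, BATF was lower in Treg cells, at 99.5 and 99.4 against 157 and 164 (adjusted p = 0.0243). The Hdac1 call was lost when any 1 library was left out (log2 fold changes from -0.71 to -0.65), and the kinase gene Lck lies 5467 bp from the same peak.

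Treg and Tconv cells were compared for BATF over all members to ask where binding at chromatin regulator genes goes with Treg identity. BATF was higher in Treg cells at 37 of 186 member peaks (19.9%, against 14.9% of all 16109 peaks) and lower at 8 (4.30%, against 4.79%). The 37 lay at 17 genes. Without Treg library 1 the higher count was 24, and the lower count was 4 without Treg library 2 and 5 without Tconv library 2. Demethylase genes had the most higher peaks, 11 of 30 with 1 lower, followed by the ARID genes outside SWI/SNF (9 of 32, 1 lower). SWI/SNF genes had 4 of 30 higher and 1 lower, methyltransferase genes 4 of 20 higher, Chd genes 4 of 41 higher and 2 lower, deacetylase genes 3 of 17 higher and 1 lower and DNA methylation genes 2 of 13 in each direction. The median log2 fold change of all members was 0.03, and that of all peaks -0.03.

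Among the demethylase genes, Kdm2b had 6 of its 8 BATF peaks higher in Treg cells. On its promoter, shown above, BATF stood at 331 and 352 in Treg against 196 and 175 in Tconv libraries (log2 fold change 0.88, SE 0.17, adjusted p = 0.00125). A weaker peak 2161 bp downstream of the nearest annotated start stood at 64.3 and 82.4 against 12.8 and 10.0 (log2 fold change 2.58, SE 0.43, adjusted p = 0.000268). Both Kdm2b calls held without any 1 library, whereas those of the other 4 peaks, with log2 fold changes from 0.68 to 0.86, were each lost without at least 1 library (0.43 to 0.91, without each of the 4 libraries for at least 1 peak). IRF4 at the Kdm2b promoter did not pass (86.2 ± 14.3 against 74.9 ± 11.7, SD, n = 4, adjusted p = 0.555). Within Kdm1a, the demethylase LSD1 (chromosome 4, 136569940 to 136570340), BATF stood at 84.0 and 75.7 in Treg and at 12.8 and 12.8 in Tconv libraries (5.84-fold, log2 fold change 2.55, SE 0.40, adjusted p = 0.000163). IRF4 was higher at this Kdm1a site as well (33.8 ± 8.20 against 15.0 ± 6.99, SD, n = 4, adjusted p = 0.0188). Leaving out Treg library 1, 3 or 4, or Tconv library 4, ended the IRF4 call at Kdm1a, with log2 fold changes from 0.80 to 1.24. Just inside Kdm4d, 965 bp from its start, BATF stood at 109 and 112 against 23.2 and 21.4 (4.78-fold, adjusted p = 6.56e-05). At a site 35000 bp from Kdm7a it stood at 213 and 189 against 43.0 and 61.4 (3.84-fold, adjusted p = 2.14e-05). Within Kdm6b, a demethylase of repressive histone methylation, 2 of 4 peaks were higher. At the Kdm8 promoter, shown above, BATF went the other way, at 113 and 82.4 in Treg against 129 and 198 in Tconv libraries (log2 fold change -0.72, SE 0.24, adjusted p = 0.0468). The Kdm8 call was lost without Treg library 2 (-0.50) or Tconv library 2 (-0.41). The 2 Kdm6b calls were lost without Tconv library 2 (log2 fold changes 0.60 and 0.62), and also without Treg library 1 or Tconv library 1 for 1 of them (0.33 and 0.62) and Treg library 2 for the other (0.90).

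Of the ARID genes, Arid5b, which encodes a DNA-binding partner of a histone demethylase, had 6 of 13 BATF peaks higher in Treg cells, the highest number alongside Kdm2b. Its strongest called site (chromosome 10, 68192811 to 68193211) stood at 242 and 254 in Treg and at 89.4 and 49.3 in Tconv libraries (3.69-fold, log2 fold change 1.88, SE 0.25, adjusted p = 3.74e-05). At a peak 21897 bp outside Arid5b, BATF stood at 53.9 and 71.1 against 8.13 and 0.714, the last value being 1 read. IRF4 was higher at this outside site and at a site within Arid5b (28.4 ± 7.75 in Treg against 5.73 ± 1.58 in Tconv libraries, SD, n = 4, log2 fold change 2.12, SE 0.40, adjusted p = 0.000463). Leaving out Treg library 1, 2 or 4, or Tconv library 4, ended the IRF4 call outside Arid5b, with log2 fold changes from 0.90 to 1.40. The BATF calls at the Arid5b peaks 68154024, 68240643 and 68248255 were each lost without at least 1 library (log2 fold changes from 0.61 to 3.37). Near Arid5a, which encodes an RNA-binding protein that stabilises cytokine transcripts, 2 of 7 BATF peaks were higher, 1 of them 343 bp from its start (224 and 173 against 113 and 128, adjusted p = 0.0193). That Arid5a call was lost without Treg library 1 (log2 fold change 0.52) or Tconv library 1 (0.62). Near Arid4a, BATF was lower in Treg cells (32.1 and 21.5 against 86.0 and 54.3, adjusted p = 0.016). The Arid4a call was lost without Treg library 2 (-1.06) or Tconv library 1 (-1.02).

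Among SWI/SNF genes 3 of the 4 higher BATF peaks lay near Smarce1, which encodes a subunit of the complex. At 8725 bp from the gene (chromosome 11, 99200122 to 99200522) BATF stood at 199 and 172 in Treg and at 31.4 and 30.0 in Tconv libraries (5.87-fold, log2 fold change 2.55, SE 0.26, adjusted p = 3.52e-06). At 1550 bp from Smarce1 it stood at 163 and 142 against 19.7 and 4.28 (14.6-fold, adjusted p = 2.84e-05). IRF4 was higher at both Smarce1 sites, 3.39-fold and 3.15-fold, and these 4 calls held without any 1 library. The chemokine receptor gene Ccr7, whose product was used to sort the Treg subsets, lies 45225 and 52416 bp from the same 2 sites. Within Smarca2, which encodes an ATPase of the complex, 1 BATF peak (chromosome 19, 26683743 to 26684143) had 150 reads over both Treg and 2 over both Tconv libraries. Scaled by library this was a ratio of 91.7, with a 95% interval of 24.9 to 764 that covers counting error only. Within Arid2, a subunit of the PBAF form, BATF was lower in Treg cells at 11.4 and 12.4 against 59.2 and 56.4 (4.56-fold lower, log2 fold change -2.19, SE 0.44, adjusted p = 0.00142).

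The methyltransferase gene Kmt2a, whose product MLL1 methylates histones at active genes, had 3 of 5 BATF peaks higher in Treg cells. At the site 12459 bp into the gene (chromosome 9, 44868630 to 44869030) BATF stood at 283 and 142 in Treg and at 61.6 and 41.4 in Tconv libraries (3.92-fold, adjusted p = 0.000123). At a site 7447 bp into Kmt2a it stood at 87.1 and 125 against 18.6 and 23.6 (4.81-fold, adjusted p = 0.000129), and IRF4 was higher at the same place (44.5 ± 12.7 against 19.1 ± 10.3, SD, n = 4, adjusted p = 0.006). IRF4 at the first of these Kmt2a sites did not differ past the threshold (89.3 ± 18.5 against 81.5 ± 15.1, adjusted p = 0.738), which sets it apart in value from BATF at the same place, though the difference between the factors was not tested. The BATF call at the Kmt2a peak 44879048 was lost without Treg library 1 (log2 fold change 1.03) or Treg library 2 (0.81). At a peak 19215 bp from Kmt2e, which encodes a related protein, BATF stood at 69.5 and 57.6 against 8.13 and 2.14 (log2 fold change 3.58, SE 0.60, adjusted p = 0.000314).

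DNA methylation genes split by direction. Within Dnmt3a, which encodes a DNA methyltransferase that sets new marks, BATF stood at 265 and 209 in Treg and at 65.0 and 57.1 in Tconv libraries (chromosome 12, 3834414 to 3834814; 3.82-fold, adjusted p = 9.8e-06). IRF4 at the Dnmt3a site was at 100 ± 17.0 against 52.9 ± 7.85 (SD, n = 4, adjusted p = 0.00322). Both Dnmt3a calls held without any 1 library. At Tet1, Tet2 and Tet3, which encode enzymes that oxidise methylated cytosine, the directions differed. Within Tet1 (chromosome 10, 62859044 to 62859444) BATF was lower in Treg cells at 12.4 and 20.3 against 46.5 and 38.6 (log2 fold change -1.36, SE 0.46, adjusted p = 0.0468). IRF4 at Tet1 was at 5.53, 6.34, 5.34 and 10.2 in Treg against 7.27, 15.3, 37.0 and 28.6 in Tconv libraries, so the lowest Tconv library overlapped the Treg range (log2 fold change -1.37, SE 0.48, adjusted p = 0.0385). The BATF call at Tet1 was lost without Treg library 1 or either Tconv library (log2 fold changes from -1.49 to -1.02), and the IRF4 call without 6 of the 8 libraries in turn (from -1.46 to -1.05). Within Tet3, BATF was lower at 17.6 and 16.9 against 54.6 and 66.4 (adjusted p = 0.00399). At Tet2, IRF4 was higher in Treg cells at -428 bp from the nearest annotated start (28.1 ± 2.48 against 12.7 ± 5.98, SD, n = 4, adjusted p = 0.0174). It was also higher 26512 bp from the gene (3.84-fold, adjusted p = 0.00219). The first of these Tet2 calls was lost without Tconv library 4 (log2 fold change 0.96).

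The Chd genes, which encode chromodomain ATPases that move nucleosomes, had 41 BATF peaks. Of these 4 were higher and 2 lower in Treg cells, against 14.9% and 4.79% of all BATF peaks. Chd2 had 15 BATF peaks, of which 1 was higher and 1 lower in Treg cells, and Chd7 had 12, of which 3 were higher. At the Chd7 site with the highest Foxp3 mean over all 8 libraries among the sites of 3 factors (159, against 157 at Hdac5, which was higher in each of the 4 sorted libraries), BATF stood at 289 and 216 in Treg and 109 and 172 in Tconv libraries (chromosome 4, 8811058 to 8811458; log2 fold change 0.86, SE 0.23, adjusted p = 0.0107). That Chd7 call was lost without Treg library 1 (0.65) or Tconv library 1 (0.53). At the Chd4 promoter, shown above, BATF stood at 302 and 273 in Treg and at 422 and 389 in Tconv libraries (log2 fold change -0.50, SE 0.17, adjusted p = 0.0447). This call was lost with edgeR (adjusted p = 0.0579), with DESeq2 and without Treg library 2 or either Tconv library. DESeq2 made 31 of the 45 BATF calls between Treg and Tconv cells. Of the calls given with values above, it did not make those at Chd4, Arid5a, Hdac1, Kdm8, Tet1 and 2 of the 4 weaker Kdm2b differences. It also did not make calls counted above at Arid5a (36293469), Arid5b (68240643 and 68248255), Kmt2a (44879048), Chd7 (8926542), Chd2 (73518412) and Hdac7 (97821232). Without a mean-variance trend the calls at Arid5a, Arid5b (68240643 and 68248255), Chd4, Chd7 (8811058 and 8926542), Hdac1, Hdac7, Kdm6b, Kdm8 and 3 of the 4 weaker ones at Kdm2b were lost.

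IRF4 was higher in Treg cells at 16 of 112 member peaks (14.3%, against 15.8% of all 9134 peaks) and lower at 4 (3.57%, against 8.39%). Without Treg library 4 the higher count was 8 and without Treg library 3 it was 10. The lower count was 0 without Treg library 3 and 1 without Tconv library 2 or 4. The 16 were 2 peaks each at Arid5b, Kmt2a, Smarce1 and Tet2 and 1 each at Arid5a, Chd7, Dnmt3a, Hdac4, Kdm1a, Kdm4d, Kdm7a and Smarca4. IRF4 was higher 6103 bp from Smarca4, the other ATPase of SWI/SNF complexes (27.5 ± 7.12 against 10.2 ± 7.22, SD, n = 4, adjusted p = 0.0183). Leaving out Treg library 3, Treg library 4 or Tconv library 1 ended the Smarca4 call (log2 fold changes from 0.99 to 1.71). The lower peaks were at Tet1, Chd2 (2 peaks) and Chd7. The stronger Chd2 peak, 76833 bp from the gene, stood at 39.6, 39.7, 34.2 and 52.0 in Treg and at 65.4, 64.7, 94.7 and 57.1 in Tconv libraries, with no overlap (log2 fold change -0.75, SE 0.23, adjusted p = 0.0214). The Chd2 call was lost without Treg library 3 (-0.66) or Tconv library 3 (-0.60). Of the 20 IRF4 calls, 7 were kept when any 1 library was left out, and edgeR made 19 and DESeq2 17. The calls at Arid5a, Kdm7a and the Chd7 peaks 8842827 and 8913187 were each kept in 2 of 8 such runs. At Chd7 8913187 (adjusted p = 0.04995 with limma) neither edgeR nor DESeq2 made the call. Without a mean-variance trend the IRF4 calls at Arid5a, Chd7 (8913187), Kdm1a, Kdm7a, Kmt2a (44879073), Smarca4 and the stronger Chd2 peak were lost.

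**Figure D3:**
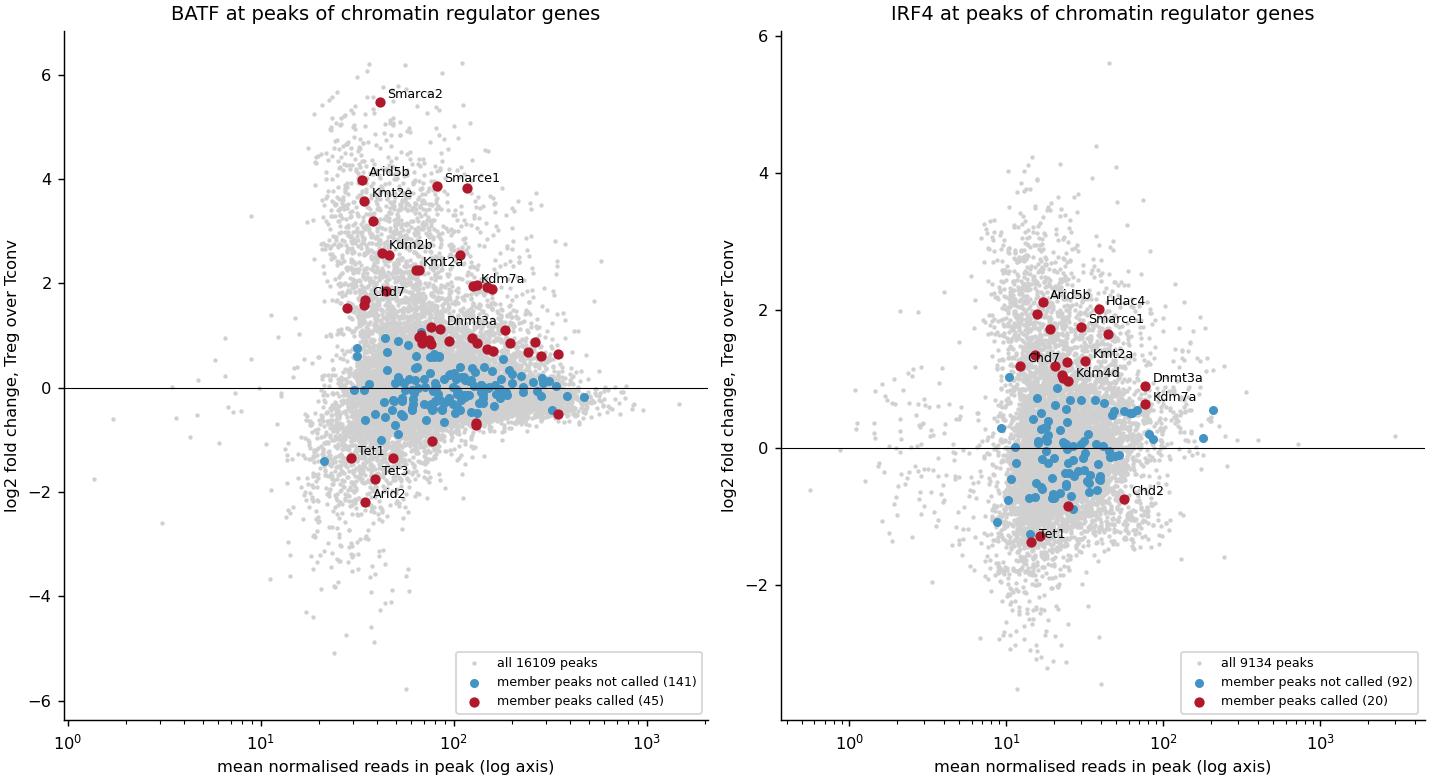
Log2 fold change in Treg over Tconv cells (vertical axis) against mean normalised reads (horizontal log axis) for BATF (left) and IRF4 (right). Grey points are all peaks, blue points member peaks that did not pass the test (141 and 92) and red points those that did (45 and 20); some of the red points carry a gene name. More red points lie above 0 than below for both factors.

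Foxp3 binding in effector and central Treg cells was compared to ask where it differs between the activated and the resting form of these cells. Foxp3 was higher in effector cells at 14 of 153 member peaks (9.15%, against 15.0% of all 6396 peaks) and lower at 6 (3.92%, against 10.8%). The higher count was 5 without either effector library, 6 without central library 1 and 9 without central library 2, whereas the lower count stayed at 5 or 6. Higher peaks lay at Chd9 (5), Arid5b (3), and 1 each at Hdac4, Arid3b, Kmt2a, Chd7, Smarca4 and Tet2. Lower peaks lay at Arid1a (2) and 1 each at Arid2, Chd2, Hdac4 and Tet1. The lower Chd2 call (73523242) was lost without effector library 1 (log2 fold change -0.83) or central library 2 (-0.72). It was also lost with no mean-variance trend and with DESeq2 (adjusted p = 0.0682). The Arid1a call at 133712638 was lost without effector library 2 (-1.17).

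The largest fall was at the Tet1 site where BATF and IRF4 were lower in Treg cells. Foxp3 stood at 6.34 and 5.77 in effector and at 40.0 and 49.7 in central libraries, or 6.47-fold lower (log2 fold change -2.69, SE 0.43, adjusted p = 4.7e-05). Unsorted wild-type (17.2 and 12.5) and Batf-/- libraries (11.2 and 9.01) lay between at Tet1. The Arid2 site followed the same order, at 20.3 and 17.3 in effector, 59.9 and 68.9 in central and 26.3 and 25.9 in wild-type libraries (log2 fold change -1.73, SE 0.30, adjusted p = 0.000109). Within Arid1a, the DNA-binding subunit of the BAF form of SWI/SNF, the peak at 133719712 to 133720112 on chromosome 4 stood at 5.07 and 7.50 against 28.0 and 28.9 (4.10-fold lower, adjusted p = 0.000434). These 3 genes therefore carried central-high Foxp3 sites whose calls held without any 1 library. Of the higher sites, the strongest in effector cells was 30011 bp from Arid3b, at 90.0 and 111 in effector and 25.3 and 49.7 in central libraries (2.77-fold, adjusted p = 0.000601). Within Arid5b 1 of 4 sites of all 3 factors was called, and stood at 65.9 and 54.2 against 26.6 and 18.5 (2.62-fold, adjusted p = 0.00093). The calls at Arid3b and at this Arid5b site also held without any 1 library. The higher Arid5b call at 68240387 was lost without effector library 2 (log2 fold change 0.95) or central library 1 (0.76). The one at 68354778 was lost without effector library 2 (1.26).

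The effector-high peaks within Chd9, a chromodomain gene, were weaker and less certain. At the 5 peaks, effector libraries ranged from 17.9 to 45.6 and central libraries from 3.71 to 18.7, with log2 fold changes from 1.38 to 2.05. Each Chd9 call was lost without effector library 1 (log2 fold changes from 0.97 to 1.98), 4 of the 5 without central library 2 (0.59 to 2.19), and 3 of the 5 without effector library 2 or central library 1 (1.48 to 2.11). Of the 5, DESeq2 called 2 and edgeR 5. At the Kmt2a site 12425 bp into the gene, Foxp3 stood at 39.3 and 62.9 in effector and at 17.3 and 19.3 in central libraries (adjusted p = 0.0311). The Kmt2a call was lost without any 1 of the 4 libraries (log2 fold changes from 1.06 to 1.73). Within Chd7 (8842780 to 8843180) Foxp3 stood at 41.8 and 59.4 against 21.3 and 28.9 (adjusted p = 0.0376), a call lost without either effector library or central library 1 (from 0.73 to 1.23). Near Smarca4 Foxp3 stood at 36.7 and 25.4 against 14.7 and 10.4 (adjusted p = 0.0446), and near Tet2 at 24.1 and 20.8 against 5.33 and 8.16 (adjusted p = 0.0104). The Smarca4 call was lost without any 1 of the 4 libraries (lowest 0.98), and the Tet2 call without either effector library or central library 1 (1.35 to 1.72). Of the higher calls outside Chd9, DESeq2 did not make those at Chd7, Smarca4 and Tet2. Without a mean-variance trend the higher calls at Chd7, Chd9 (91042777), Kmt2a and Smarca4 were lost.

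Batf-/- and wild-type Treg cells were compared for Foxp3 as well. Foxp3 was lower in Batf-/- cells at 3 of 153 member peaks (1.96%, against 3.91% of all peaks). None was higher with limma (0.547% of all peaks), 11 were at an unadjusted p under 0.05, and edgeR called 1 and DESeq2 0. Without knockout library 1 the higher count was 3, and without either wild-type library it was 1. The lower count was 1 without either wild-type library, 5 without knockout library 1 and 2 without knockout library 2. The Hdac4 site above was 1 of the 3 and the only one called without any 1 library, and the only one called without a mean-variance trend. At the Kmt2a site Foxp3 stood at 48.5 and 54.3 in wild-type and at 24.4 and 3.86 in Batf-/- libraries, the last value being 3 reads (log2 fold change -2.24, SE 0.48, adjusted p = 0.00508). At a site 59280 bp from Chd7 it stood at 28.3 and 33.4 against 7.11 and 18.0 (adjusted p = 0.0308). The Kmt2a call was lost without either wild-type library or knockout library 2 (log2 fold changes from -2.32 to -1.04), and the Chd7 call without either wild-type library or knockout library 1 (from -1.47 to -0.74). DESeq2 did not make the Chd7 call (adjusted p = 0.228). With limma it was also lost under quantile normalisation (adjusted p = 0.0882) and with only the 2 groups compared. At 2 of the strongest Foxp3 sites the change did not pass: the Chd7 site at 8811025 stood at 278 and 233 in wild-type and at 229 and 184 in Batf-/- libraries (adjusted p = 0.584), and the Arid5b site at 68192783 at 203 and 132 against 182 and 97.8 (adjusted p = 0.678). A value that misses the threshold does not show that binding was the same.

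In the R397W experiment BATF was lower in mutant cells at 5 of 80 member peaks (6.25%, against 8.04% of all 9973 peaks), 1 each at Hdac4, Kdm1a, Chd7, Arid1a and Chd2. None was higher with limma (0.612% of all peaks), with edgeR or with DESeq2, and 4 were at an unadjusted p under 0.05. Within Kdm1a BATF stood at 74.0 and 104 in control and at 30.8 and 24.9 in R397W libraries (log2 fold change -1.63, SE 0.35, adjusted p = 0.00982), and this call was lost without control library b (-1.39). The same Chd7 site that was effector-high for Foxp3 stood at 41.6 and 38.0 against 8.55 and 13.2 (log2 fold change -1.81, SE 0.54, adjusted p = 0.0465). The Chd7 call was lost without either control library or mutant library 1 (-1.87 to -1.53). The lower count was 0 without control library b and 3 without control library a or mutant library 2. Control library b had 144319 reads in peaks, the fewest of the series, and 1 read in it is worth 3.46 normalised reads. The calls at Arid1a and Chd2 were each lost without at least 3 of the 4 libraries in turn, both control libraries among them (-2.18 to -1.26). Of the 5, DESeq2 called only Kdm1a, and without a mean-variance trend none was called. At the Tet1, Tet3 and Arid2 sites where BATF was lower in Treg than in Tconv cells, both R397W libraries lay above both controls in value, but none of the 3 passed. Tet1 was at 30.8 and 20.8 in R397W and at 3.08 and 17.3 in control libraries (adjusted p = 0.215), Tet3 at 20.5 and 29.1 against 12.3 and 6.92 (adjusted p = 0.241), and Arid2 at 25.6 and 27.7 against 10.8 and 3.46 (adjusted p = 0.108). The lowest of these control values are 2, 2 and 1 reads.

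Of the members' Foxp3 peaks 88.9% lay inside a gene body, against 67% of all Foxp3 peaks, a difference that was not tested. For BATF (first table) the shares were 66.7% and 58.7%, and for IRF4 66.1% and 55.7%. Of the 90 genes with 8 or more Foxp3 peaks inside the body, 10 were members, of 29 member genes and 1958 genes in all with at least 1. Chd2 held 17 such peaks, Kmt2a 10, Chd9 9, Chd7 8 and Arid5b 8. Among these genes the bodies ran from 77998 bp (Kmt2a) to 226215 bp (Chd9), and the counts were not scaled to length. The part of gene length in the counts and in the shares inside gene bodies was not tested. With peaks outside the body included, neither BATF nor IRF4 overlapped 14 of 17 Foxp3 peaks at Chd2 and 8 of 11 at Kmt2a. The counts were 8 of 10 at Chd9, 1 of 11 at Chd7 and 2 of 9 at Arid5b. Kmt2e held 12 peaks inside the body, Kdm5a 11, Chd1 9, Smarca5, the ATPase of ISWI complexes, 9, and Chd8 8. None of the peaks of these last genes, from Kmt2e to Chd8, overlapped a BATF or IRF4 peak. Over all members, 102 of 153 Foxp3 peaks (66.7%) overlapped neither, against 45.6% of all Foxp3 peaks, and 99 of the 102 were inside a gene body. They were weak: the median of their group means was 26 in effector, 25 in central, 14.9 in wild-type and 16.7 in Batf-/- libraries, where 1 read is worth 0.577 to 1.33.

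**Figure D4:**
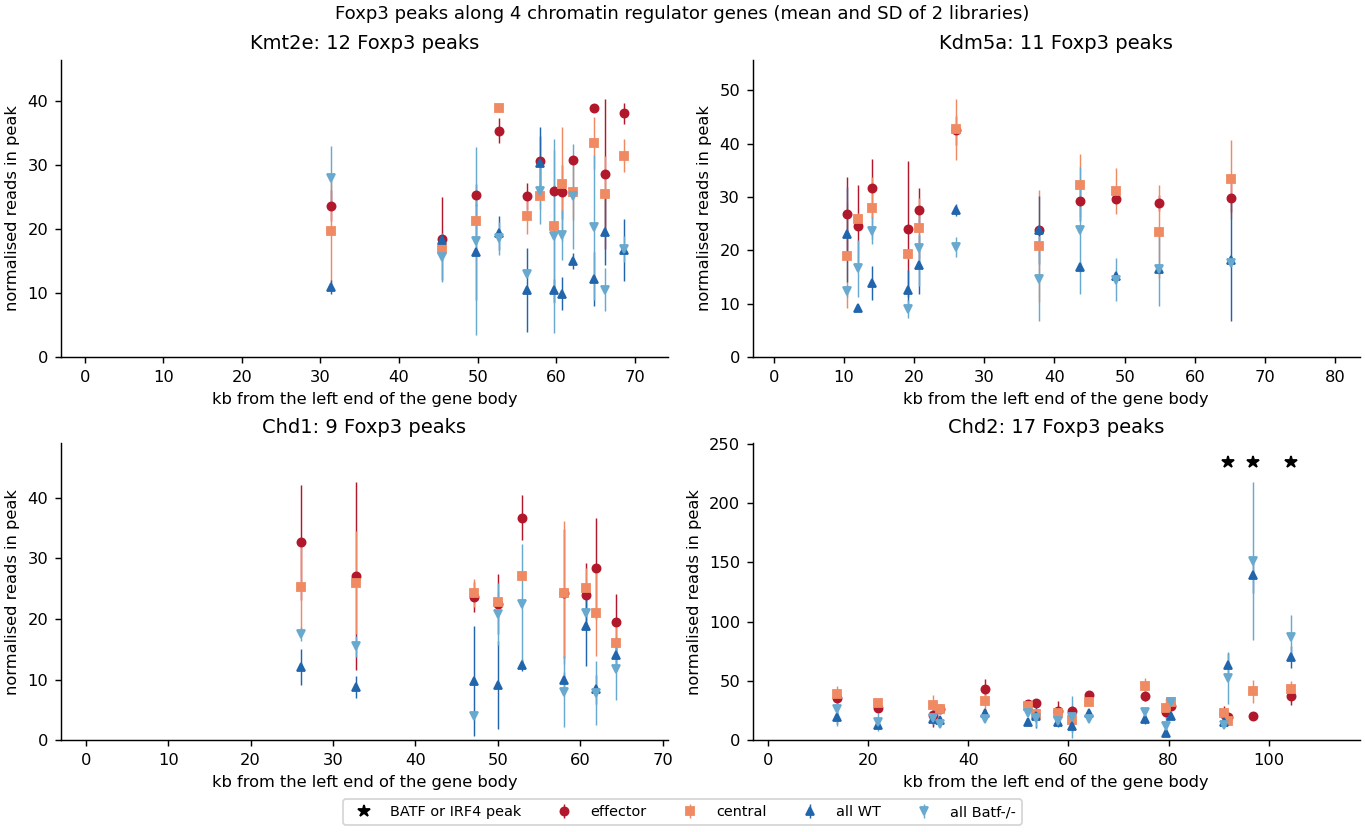
Foxp3 values (vertical axis, normalised reads; mean and SD of 2 libraries) at each peak within Kmt2e, Kdm5a, Chd1 and Chd2 against distance from the left end of the gene body in kb. Red and orange points are the effector and central libraries, blue points the unsorted wild-type and Batf-/- libraries, and stars mark Foxp3 peaks that overlap a BATF or IRF4 peak. Only Chd2 has stars, and there the unsorted libraries are the high ones.

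The effector and central libraries also differed together from the unsorted Treg libraries, a comparison added after the data were seen. It shares the effector, central and wild-type libraries with the comparisons above. With limma on the same fit, both subsets together were higher than all wild-type Treg cells at 47 of 153 member peaks (30.7%, against 19.4% of all peaks) and lower at 22 (14.4%, against 26.6%). The higher count was 28 without effector library 1, 31 without wild-type library 1 and 19 without wild-type library 2. The lower count was 14 without wild-type library 1 and 13 without wild-type library 2. With the Batf-/- libraries as the unsorted group the counts were 41 and 18. The 2 groups of sites split here. Of the 102 peaks without BATF or IRF4, 43 were higher and 2 lower in the sorted subsets, and of the 51 with BATF or IRF4, 4 were higher and 20 lower. Among all Foxp3 peaks the shares were 33.4% and 11.5% without, and 7.70% and 39.3% with, a BATF or IRF4 peak, so the split was there in the whole table. At 38 of the 102 all 4 sorted libraries lay above all 4 unsorted ones (37.3%, against 25.4% of all peaks of this class), and at 20 of the 51 below (39.2%, against 27.5%).

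Large single differences lay at Kdm5c, Arid5b and Chd2. On the Kdm5c promoter, shown above, Foxp3 stood at 96.3 and 106 in effector, 148 and 133 in central, 28.3 and 21.7 in wild-type and 22.4 and 23.2 in Batf-/- libraries (sorted over wild type 4.64-fold, log2 fold change 2.22, SE 0.22, adjusted p = 1.53e-07). At the Arid5b sites 68192783 and 68240387 the order was reversed, with 18.5 to 69.2 in the 4 sorted and 97.8 to 231 in the 4 unsorted libraries over both sites (log2 fold changes -2.13 and -2.14). Within Chd2 (73523242 to 73523642) Foxp3 stood at 19.0 and 22.5 in effector and 34.6 and 48.2 in central libraries, below the 151 and 129 of wild-type and the 198 and 104 of Batf-/- libraries (log2 fold change -2.22, SE 0.25, adjusted p = 4.75e-07). The wild-type Treg value at these Arid5b and Chd2 sites thus lay above both subsets. Near Arid5a the Foxp3 site of all 3 factors stood at 44.0 to 57.1 in the sorted and at 74.8 to 107 in the unsorted libraries (log2 fold change -0.73), a call lost without wild-type library 2 (-0.57) and under quantile normalisation (adjusted p = 0.218). At 7 of 12 Kmt2e, 7 of 9 Chd1 and 5 of 11 Kdm5a peaks the sorted subsets were higher. Reads in peaks ranged from 164740 to 393310 in the sorted and from 198741 to 316698 in the unsorted libraries, and which steps of sorting or preparation differed is not given in the labels. Whether sorting, preparation or the cells themselves set these differences was not tested.

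**Figure D5:**
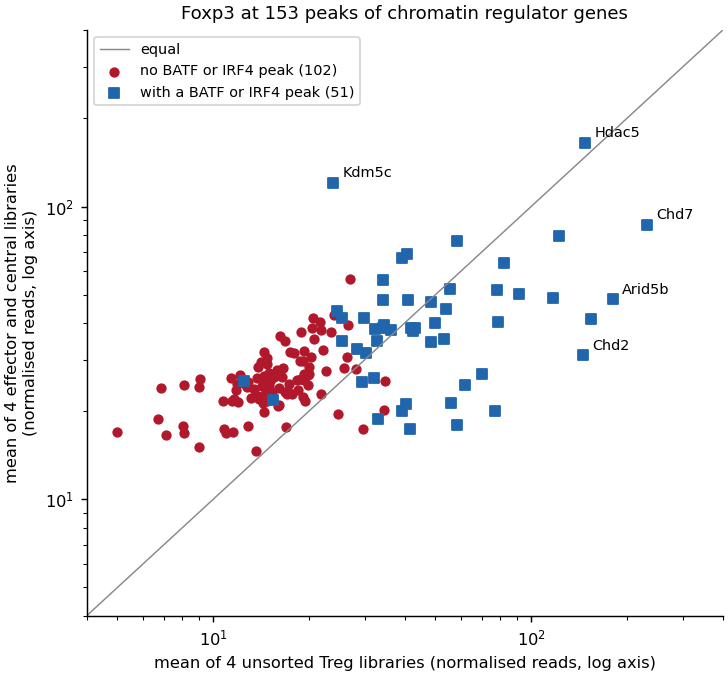
Mean of the 4 sorted (effector and central) libraries against the mean of the 4 unsorted Treg libraries at 153 member Foxp3 peaks (normalised reads, both axes log). Red circles, peaks without BATF or IRF4, lie mostly above the line of equal values, and blue squares, peaks with BATF or IRF4, lie on both sides, with Kdm5c far above and Chd7, Arid5b and Chd2 far below it.

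Other chromatin genes outside the symbol rule give a scale for these counts. In 5 lists (Polycomb, acetyltransferase and bromodomain, other methyltransferase, corepressor, and other remodeler genes; 124 genes), BATF was higher in Treg cells at 25 of 210 peaks and lower at 6. Of all BATF peaks, 14.9% were higher and 4.79% lower. IRF4 was higher at 12 of 100 and lower at 7 (15.8% and 8.39% of all IRF4 peaks). Foxp3 was higher in effector cells at 6 of 125 and lower at 17 (15.0% and 10.8% of all Foxp3 peaks). Of the 17, 11 fell in the corepressor list, which had 26 Foxp3 peaks at 10 genes. This list also holds NuRD and sirtuin genes and the organiser gene Satb1, and the 11 were not split by gene. The members had 14 of 153 higher (9.15%) and 6 lower (3.92%) in that comparison, both below the shares of all peaks. The difference between the lists was not tested.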

How the data were processed

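Factor binding was analysed from 4 deposited peak tables of mm10, 1 for each antibody and experiment, covering 24 immunoprecipitation libraries (the wild-type BATF libraries appear in both BATF tables); 10 input libraries were not analysed here. The deposited values are normalised peak scores (a signal) made by the authors; the submitters' processing notes name Bowtie2 2.4.1, MACS2 2.2.7.1, DiffBind 3.12.0 and edgeR 3.38.4, with no role or order given. In each library 100% of values were whole multiples of the value of 1 read (tolerance 0.01), so reads were recovered for alternatives and precision; intervals from them cover counting error only. Antibodies were anti-BATF clone D7C5 and an in-house anti-Foxp3, per the labels.

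Each table was fitted with limma 3.58.1 (R 4.3.3) on log2(value + 1), with a mean-variance trend, 2-sided tests and Benjamini-Hochberg adjustment over all peaks of the table, and peaks with an adjusted p under 0.05 were called. Folds are on this scale and understate changes of low peaks. The 4 Foxp3 groups shared 1 fit. Alternatives were a pseudocount of 5, leaving out peaks under the 25th percentile, no trend, quantile normalisation, edgeR 4.0.16 quasi-likelihood and DESeq2 1.42.0 on recovered reads, each library left out, a replicate block, only the 2 groups compared and a 10 kb limit. Where a group is left with 1 library, it is assumed to vary like the others. The fit was tested on simulated data. Replicate numbers were used to pair libraries only in the replicate block. Distances run from the peak centre to the gene body. Where a start or a depth into a gene is named, they run to the nearest annotated start of the gene. Coordinates are as deposited, and exons and introns were not settled by the annotation used here. Tables, sites and figures were made with Python 3.11.15, pandas 2.3.3, numpy 2.4.6, scipy 1.17.1 and matplotlib 3.10.9. Peaks named by rule were up to 5 called members per direction with the largest change and a mean above the table's median, the strongest peak of each of 34 listed genes, those of the 5 genes with most peaks, and 6 sites of all 3 factors with the highest Foxp3 mean. The members, lists and named peaks were chosen with earlier results of these data known; the comparison of sorted with unsorted Treg cells, the promoter windows shown and peaks named outside this rule were chosen after the values were seen.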

Additional observations from a re-analysis of the deposited data

Results flagged for a closer look

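In 40 groups of 4 libraries at named IRF4 peaks, 2 held a library that stood apart from the other 3; chance flags about 1 in 20 groups. At the Smarce1 site on chromosome 11 (99207257), IRF4 in Treg library 1 stood at 35.0 normalised reads, against 79.3, 80.1 and 80.1 in the other Treg libraries. At the Kdm1a site on chromosome 4 (136569927), IRF4 in Tconv library 4 stood at 4.57, against 17.8, 18.8 and 18.9 in the other Tconv libraries. The Smarce1 call held without any 1 library, and the Kdm1a call was lost without Tconv library 4 (log2 fold change 0.80).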

How the results depend on the processing

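No named value changed sign under any alternative run: of 1347 values, 1065 kept their side of the threshold and 282 lost the call. Of 160 counts of called member peaks, 120 stayed within 1.5 times the value reported and 40 did not; the cause was not tested. For BATF in Treg against Tconv cells the higher count (37) was 24 to 32 with 1 library left out, and the lower count (8) was 4 to 6, 3 with low peaks left out and 4 with DESeq2. For IRF4 the higher count (16) was 8 to 15 with 1 library left out, and the lower count (4) was 0 to 4, 2 with no trend and 1 within 10 kb. For Foxp3 in effector against central cells the higher count (14) was 5 to 9 with 1 library left out, 8 with low peaks left out and 8 with DESeq2, and the lower count (6) was 5 to 6. For Batf-/- against wild-type cells the higher count (0) was 0 to 3 with 1 library left out and 1 with a pseudocount of 5 or with edgeR, and the lower count (3) was 1 to 5, and 1 with no trend. For R397W against control cells the lower count (5) was 0 to 5 with 1 library left out, 0 with no trend, 2 with quantile normalisation and 1 with DESeq2, and the higher count was 0 in each. For sorted against unsorted Treg cells the higher count (47) was 19 to 43 with 1 library left out, 26 with low peaks left out and 20 with DESeq2, and the lower count (22) was 13 to 19.

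Same-numbered libraries had correlations of deviations of 0.0882 for BATF, 0.0346 to 0.132 for IRF4, and 0.139 and 0.0761 for the 2 Foxp3 comparisons, and 6 of 8 IRF4 libraries correlated best with their own number. With a replicate block the higher counts were 41 for BATF, 19 for IRF4, 14 for effector against central, 0 for Batf-/- and 45 for sorted against unsorted cells, and the IRF4 call at Chd7 (8842827) was lost (adjusted p = 0.0547). For the R397W experiment no replicate block was possible, because the numbers of the control columns do not match those of the control samples' labels. Depth limits weak peaks most: control library b of the R397W experiment had 144319 reads in peaks.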

Other observations

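By group of genes outside the symbol rule, BATF was higher in Treg cells at 11 of 48 peaks of Polycomb genes and lower at 1, at 4 of 33 peaks of acetyltransferase and bromodomain genes with 1 lower, and at 5 of 47 peaks of other methyltransferase genes with 1 lower. Of all BATF peaks, 14.9% were higher and 4.79% lower. In R397W cells BATF was lower at 3 of 36 Polycomb peaks, against 8.04% of all peaks. Foxp3 was higher in the sorted subsets than in all wild-type Treg cells at 13 of 31 peaks of other remodeler genes and lower at 3. At corepressor genes it was higher at 0 of 26 and lower at 11 with limma. Of all Foxp3 peaks, 19.4% were higher and 26.6% lower in the sorted subsets. These lists were chosen with earlier results known, and differences between them were not tested.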
